A study of Mus musculus with 2 samples.

Results

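The genes described here are 35 genes of fatty acid synthesis, uptake, activation and mitochondrial oxidation, taken by symbol from a table of 24091 genes. All 35 had a row. They fall into a synthesis arm of 12 genes (acetyl-CoA supply, chain building, elongation and desaturation), 6 genes of uptake and activation, and an oxidation arm of 17 genes of the mitochondrion. RNA-seq read counts came from 2 libraries, both of mouse γδ T cells of the spleen. One is labelled freshly isolated (fresh cells in what follows) and the other IL-2 expanded. γδ T cells are lymphocytes whose antigen receptor is built from a γ and a δ chain, and interleukin 2 (IL-2) is a growth factor for T cells. The expansion ran for 5 days with IL-2 at 100 U/ml, after activation with antibodies to CD3 and CD28. Strain, age, genotype and the number of animals are not stated in the labels used here. The same culture and extraction wording is attached to both libraries, so that the uncultured state of the freshly isolated one rests on its treatment label and the series design. Activation, culture and IL-2 therefore cannot be told apart in this comparison.

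Fatty acids are built in the cytosol from acetyl-CoA, which is carboxylated to malonyl-CoA and joined into palmitate, and are then lengthened and desaturated at the endoplasmic reticulum for membranes and stores. They are burned in mitochondria, where carnitine carries the acyl chain across the inner membrane and a repeated cycle of dehydrogenation, hydration, oxidation and thiolysis releases acetyl-CoA. Dividing T cells are known for a high demand for membrane lipid, and resting and memory T cells for their use of fatty acid oxidation.

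Total counts were 20379385 for fresh and 22204099 for expanded cells, and with 1 library per group no difference could be tested against a spread between samples. Levels are counts per 1000000 of the scaled library (CPM), and intervals are at the 95% level, exact, and reflect counting error alone. One count equalled 0.0465 CPM in fresh and 0.0476 CPM in expanded cells. The CD3 chains that mark T cells were present in both, with none of 4 genes 2-fold apart. In the freshly isolated library, markers of other spleen cells were also present. The 20 macrophage and monocyte markers summed to 1245 CPM there and 90.7 CPM in expanded cells, where 11 of them had 0 counts (Vcam1, Sirpa, Slc40a1, Cybb, Lyz2, C1qa, C1qb, C1qc, Spic, Mertk and Cd163). Fresh cells had Vcam1 at 166 CPM and Csf1r at 141 CPM. Most of the sum in expanded cells was Hmox1 (63.0 CPM) and Cd68 (20.7 CPM), while Csf1r had 1 count there. The 11 B cell and plasma cell markers compared summed to 951 and 4.66 CPM, led by Jchain at 784 CPM and Cd22 at 59.1 CPM in fresh cells, and 5 of them had 0 counts in expanded cells. The 6 erythroid and platelet markers compared (Hbb-bs at 44.8 CPM and Slc4a1 at 19.1 CPM in fresh cells) summed to 91.8 and 0.333 CPM. The 3 stromal, endothelial and adipocyte markers compared summed to 180 and 129 CPM, nearly all of it Pecam1 at 163 and 128 CPM. Stab2 was at 11.8 CPM in fresh and 0.0951 CPM in expanded cells. The markers of this list that were not compared had at most 6 counts each in fresh cells. Immediate early and tissue dissociation genes (16, led by Junb at 4020 CPM and Fosb at 3101 CPM) summed to 23120 and 1374 CPM. The part of these other cells and of tissue handling in the differences below was not tested.

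The members took 0.233% of all counts of the fresh cells (Clopper-Pearson interval 0.231 to 0.235, exact) and 0.616% of those of the expanded cells (0.613 to 0.619). Of the 35, 34 had a mean of at least 1 CPM and were compared, and Acacb did not. In expanded cells, 15 of the 34 were higher by 2-fold or more, against 22.4% of all 11715 genes compared, and 2 were lower by that much, against 25.0% of all genes. Their median log2 fold (expanded over freshly isolated, prior count of 2) was 0.72, beside 0.04 over all genes. The arms differed in how far they were apart between the libraries. In the synthesis arm, 7 of 11 compared genes were at least 2-fold higher, 1 was lower and 3 lay between (median 1.87). In the oxidation arm, 5 of 17 were higher, none was lower and 12 lay between (median 0.57). Uptake and activation had 3 of 6 higher and 1 lower (median 1.15). By a 4-fold limit, passed upwards by 8.92% and downwards by 13.5% of all genes, 4 synthesis genes were higher (Scd1, Scd2, Fads1 and Fads2) and 1 lower, against 1 higher and none lower in the oxidation arm. Acaca lay at the limit: its plain CPM ratio was 4.02, but its log2 fold was 1.9996 with the prior count of 2, so it was not counted, and 2.005 with a prior count of 0.5. The log2 folds of the oxidation genes, from -0.57 to 2.17, lay inside the span of the synthesis genes, from -2.38 to 8.15, so that the arms overlapped.

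**Figure D1:**
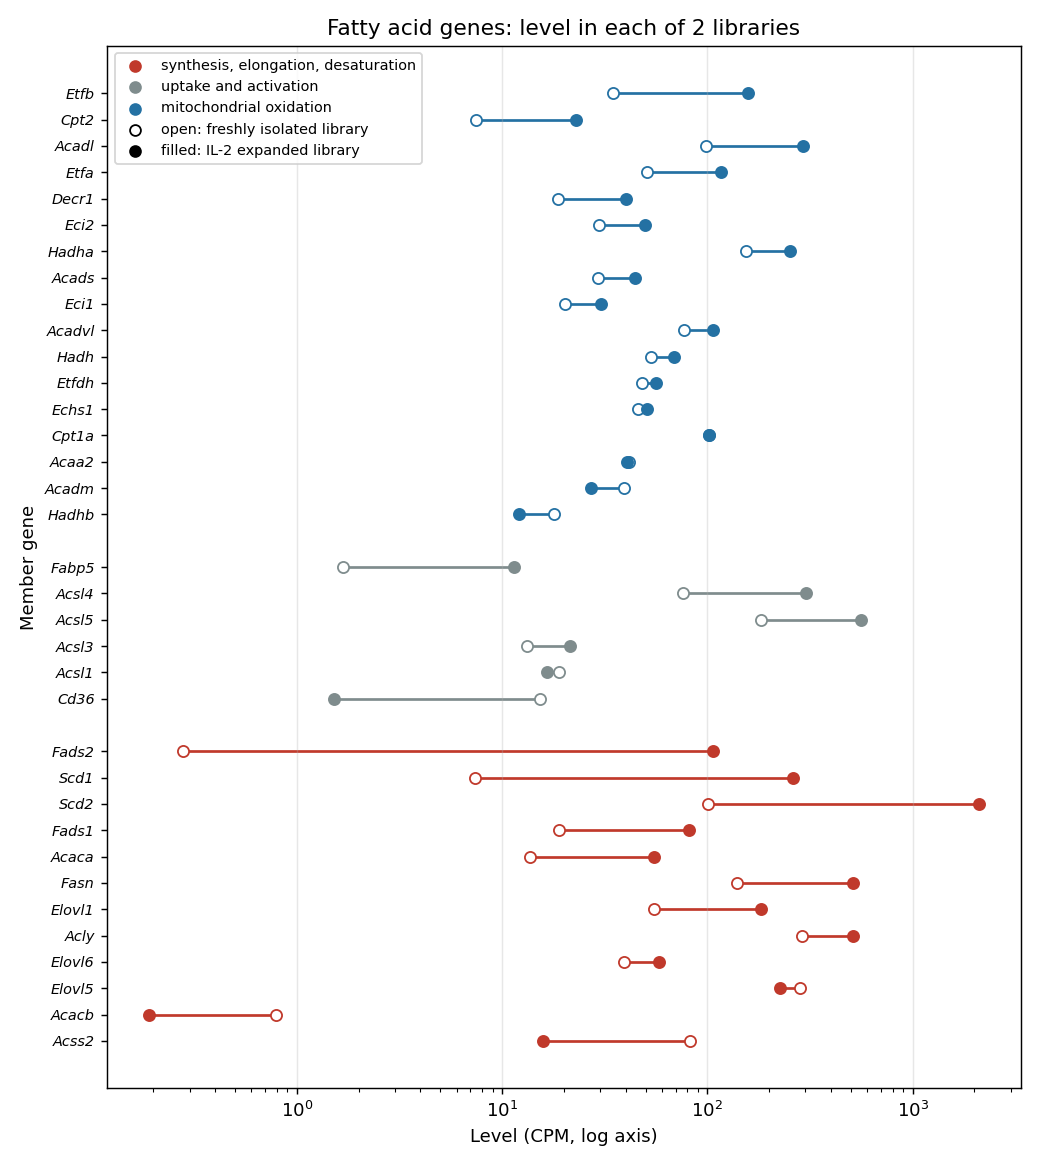
Level of each of the 35 members in CPM (log axis) in the freshly isolated library (open points) and the IL-2 expanded library (filled points), with 1 line a gene and 1 colour an arm. The longest lines are those of the desaturases Fads2, Scd1 and Scd2, while Cpt1a and Acaa2 have their points on top of each other.

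Among the genes that supply acetyl-CoA and build the chain, those of the main cytosolic route were higher in expanded cells and the acetate-using enzyme was lower. Acly encodes ATP citrate lyase, which splits citrate to acetyl-CoA. It stood at 289 CPM in fresh and 514 CPM in expanded cells, a 1.78-fold higher level (interval 1.73 to 1.84). Acss2, the cytosolic and nuclear enzyme that makes acetyl-CoA from acetate, went the other way, from 82.7 to 15.8 CPM, 5.22-fold lower (interval 4.64 to 5.89). Counted against each other inside each library, which needs no scaling, Acly had 3.49 counts for each count of Acss2 in fresh and 32.4 in expanded cells. The deposited span of Acss2 overlaps that of Gss on the other strand (226 and 460 counts), and 6.13% of the 50-base stretches of Acss2 transcripts also occur in other genes.

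Acaca, the acetyl-CoA carboxylase that makes malonyl-CoA for synthesis, stood at 13.7 CPM in fresh and 55.1 CPM in expanded cells (4.02-fold, interval 3.53 to 4.58). In Acaca, 30.4% of 50-base stretches also occur in transcripts of other genes, so its level is uncertain by an amount not known. Its paralog Acacb, whose malonyl-CoA is known mainly for holding back the carnitine shuttle, had 17 counts (0.790 CPM) and 4 counts (0.190 CPM), 4.15-fold lower with an interval from 1.35 to 17.0. Fasn, the multienzyme that joins malonyl units into palmitate, was at 140 CPM in fresh and 512 CPM in expanded cells (3.66-fold, interval 3.51 to 3.81). Fasn lies on chromosome 11 from 120805958 to 120824547 (build GRCm38). All of these genes but Acss2 and Acacb had the higher level in expanded cells.

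The 4 desaturases, which put double bonds into the chain, were all higher in expanded cells, and Fads2, Scd1 and Scd2 had the 3 highest log2 folds of all members (8.15, 5.14 and 4.38). Their summed level was 128 CPM in fresh and 2556 CPM in expanded cells, higher by 20.03-fold (interval 19.3 to 20.8). Scd1 and Scd2 encode stearoyl-CoA desaturases, which make monounsaturated oleate and palmitoleate. Scd2 (chromosome 19, 44293676 to 44306862) went from 101 to 2106 CPM, 20.9-fold higher (interval 19.98 to 21.8). Per kb of deposited gene length, Scd2 stood at the 68.0th percentile of all compared genes in fresh and at the 99.1st percentile in expanded cells. Scd1 (chromosome 19, 44394450 to 44407709) went from 7.34 to 262 CPM, 35.7-fold higher (interval 30.4 to 42.04). Scd2 outnumbered Scd1 in both libraries, by 12.2 to 1 per kb in fresh and 7.14 to 1 in expanded cells. Sequence shared with other genes, mostly each other and the paralogs Scd3 and Scd4, made up 4.56% of the 50-base stretches of Scd1 and 3.97% of those of Scd2.

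Fads1 and Fads2 encode the front-end desaturases of polyunsaturated fatty acid synthesis, and lie head to head on chromosome 19 with 81384 bases between their spans. Fads2 (10064164 to 10101503) had 6 counts in fresh cells (0.279 CPM) and 2230 in expanded cells (106 CPM). The ratio was 381, with an interval from 175 to 1038. Fads1 (10182888 to 10196872) went from 19.0 to 81.7 CPM, 4.30-fold higher (interval 3.86 to 4.80). Fads1 thus had 64.03 times the level of Fads2 per kb in fresh cells and 0.723 times in expanded cells, and their order reversed.

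The elongases, which lengthen the chain, were less uniform. Elovl1, which acts on saturated very long chains, stood at 54.7 and 182 CPM (higher by 3.33-fold, interval 3.12 to 3.56). It shares 52 bases with Cdc20 on the other strand (113 and 1863 counts), so its level is uncertain by an amount not known. Elovl6, which lengthens palmitate to stearate, stood at 39.3 and 58.4 CPM (1.49-fold, interval 1.36 to 1.62). Elovl5, the elongase of polyunsaturated chains, had the highest level per kb of the 3 in fresh cells. It was at 283 CPM there and stood at 226 CPM in expanded cells, 1.25-fold lower (interval 1.20 to 1.30). Per kb, Elovl5 made up 41.01% of the synthesis arm in fresh cells and 9.64% in expanded cells, while Scd2 went from 7.45% to 45.7%.

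Promoter sequences were in the RefSeq table (GRCm38.p6) for 29 of the 35 members. Scd1, Scd2, Fads1, Fabp5, Decr1 and Acaa2 had none there, so that of the desaturases only Fads2 was searched. The 250 bases before the start were searched on both strands for TCACNCCAC, the core of a sterol regulatory element, for the full element (the core with an A before it and C at its free base), for the E-box CACGTG, for the CCAAT box CCAAT, and for a direct repeat of AGGTCA with 1 free base between the copies, which nuclear receptors bind. CCAAT was in 5 of 9 synthesis genes (Acacb, Acss2, Elovl1, Elovl5 and Fasn), 4 of 5 genes of uptake and activation and 6 of 15 oxidation genes. It was in 37.5% of all 27025 genes with a promoter in the table, and in 40.6% of the 9194 of them that were compared here. It stood before members that were higher (Fasn, Etfb) and lower (Acss2, Cd36) alike. The core TCACNCCAC was in Acsl1 and in 1.22% of all genes, CACGTG was in Elovl5 and in 6.86% of all genes, and the full element and the direct repeat were in no member window (0.0814% and 0.0407% of all genes). A match describes the letters and no more. The stretches nearest the start are shown for 2 synthesis genes that were at least 2-fold higher (Fasn and Elovl1). The same is shown for Elovl5, the elongase that was lower in expanded cells. All stretches run 5′ to 3′ on the strand of the gene, with CCAAT or its reverse complement ATTGG in capitals. Their positions are chr11:120824548-120824697 (minus strand), chr4:118427943-118428092 (plus) and chr9:77917215-77917363 (plus).
Fasn: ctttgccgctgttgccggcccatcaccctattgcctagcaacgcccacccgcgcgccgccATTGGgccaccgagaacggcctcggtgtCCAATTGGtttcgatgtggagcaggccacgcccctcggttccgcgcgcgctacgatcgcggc
Elovl1: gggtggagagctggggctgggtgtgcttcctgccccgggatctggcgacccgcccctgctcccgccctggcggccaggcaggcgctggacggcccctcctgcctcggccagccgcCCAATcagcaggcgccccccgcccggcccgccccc
Elovl5: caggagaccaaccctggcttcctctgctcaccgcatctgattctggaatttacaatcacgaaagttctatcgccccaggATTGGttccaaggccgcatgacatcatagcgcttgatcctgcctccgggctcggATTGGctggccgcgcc
The match nearest the start lay 59 bases before it in Fasn, 35 in Elovl1 and 17 in Elovl5. Elovl1 has another start in the table, and the stretch of the same length before it (chr4:118429551-118429700, plus strand) holds neither CCAAT nor ATTGG.

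**Figure D2:**
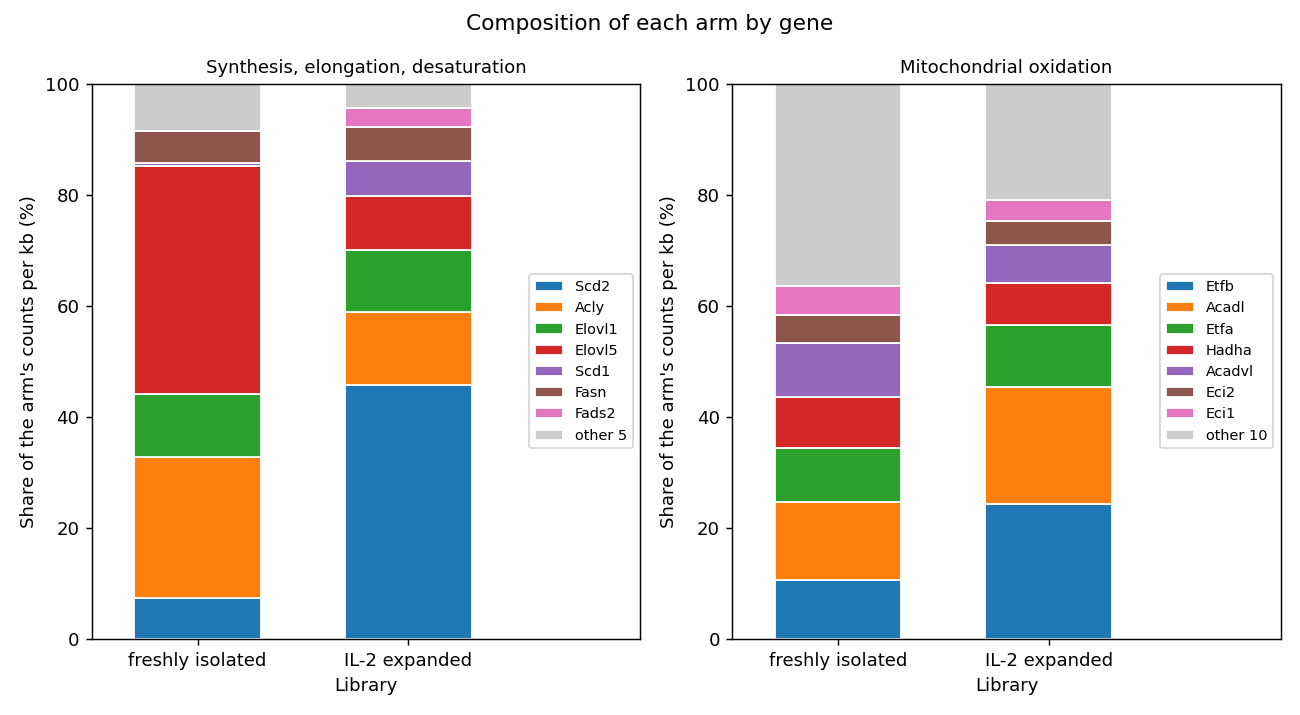
Share of each arm's counts per kb of gene length (%) held by its 7 genes of highest share in expanded cells and by the remaining genes, in each library. In the synthesis arm Elovl5 and Acly lead in fresh cells and Scd2 in expanded cells, and in the oxidation arm Etfb goes from 10.7% to 24.4% and Acadl from 14.02% to 21.03%.

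Fatty acid uptake and activation held the member with the lowest log2 fold of all. Cd36, a membrane transporter of long-chain fatty acids also found on macrophages and endothelium, was at 15.4 CPM in fresh and 1.52 CPM in expanded cells, 10.1-fold lower (interval 7.02 to 15.01). The macrophage markers (1245 and 90.7 CPM in sum, 18 of 20 at least 2-fold lower) were lower in the same library. Their part in the level of Cd36 was not tested, and fewer cells of a type and less RNA per cell cannot be told apart in such libraries. Fabp5, the epidermal fatty acid binding protein that T cells also use, was at 1.67 and 11.4 CPM (6.83-fold higher, interval 4.79 to 9.98).

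Acyl-CoA synthetases join the fatty acid to coenzyme A, which commits it to either storage, membranes or oxidation. Acsl5 stood in both libraries at 183 and 562 CPM (3.07-fold higher, interval 2.96 to 3.18), and its span overlaps Zdhhc6 on the other strand (461 and 1612 counts). Per kb it was the most abundant of the 6 and held 67.8% of the uptake and activation genes in fresh cells and 69.7% in expanded cells. Acsl4, which prefers arachidonate and other polyunsaturated chains, stood at 75.7 and 304 CPM (higher by 4.01-fold, interval 3.80 to 4.24). Acsl3 was at 13.2 and 21.3 CPM (1.61-fold, interval 1.38 to 1.87) and overlaps Utp14b on the same strand (502 and 176 counts). Acsl1 was at 19.0 and 16.5 CPM, with an interval of the ratio from 0.749 to 1.002 that held equality. Acsl4 had 3.01 times the level of Acsl1 per kb in fresh and 13.9 times in expanded cells.

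In the oxidation arm the genes of the entry step and of the core cycle were mostly close between libraries. Cpt1a, the outer membrane carnitine palmitoyltransferase and a rate-setting step of oxidation, stood at 102 CPM in both (ratio 1.01, interval 0.947 to 1.07), and the sign of its log2 fold was negative under each of the 4 other scalings. Cpt2, the inner membrane partner, was at 7.48 and 22.8 CPM (3.05-fold higher, interval 2.55 to 3.67). Cpt1a had 7.44 times the level of Cpt2 per kb in fresh cells and 2.45 times in expanded cells.

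The 4 acyl-CoA dehydrogenases open each round of the cycle and differ in the chain length they take. Acadl, the long-chain enzyme, was at 98.8 and 293 CPM (2.97-fold higher, interval 2.83 to 3.12) and had the highest level per kb of the 4 in both libraries. The very long-chain gene Acadvl was at 77.2 and 106 CPM (1.38-fold, interval 1.29 to 1.47), but 26.9% of its 50-base stretches also occur in Dvl2, which overlaps it on the other strand (928 and 539 counts). The short-chain gene Acads was at 29.5 and 44.3 CPM (1.51-fold, interval 1.36 to 1.67). The medium-chain gene Acadm was lower, at 39.3 and 27.2 CPM (1.45-fold lower, interval 1.30 to 1.61). Per kb, Acadl exceeded Acadm by 2.66 to 1 in fresh and by 11.4 to 1 in expanded cells, and the order of Acadm (19.2 and 13.2 CPM per kb) and Acads (15.8 and 23.8 CPM per kb) reversed.

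None of the 5 genes from hydration to thiolysis was 2-fold apart. Echs1, the short-chain enoyl-CoA hydratase, was at 46.2 and 51.0 CPM, with a log2 fold of 0.14 that was -0.01 under scaling by total count. Hadh, the short-chain hydroxyacyl-CoA dehydrogenase, was at 52.9 and 69.02 CPM, and the thiolase gene Acaa2 at 41.6 and 40.5 CPM (interval of the ratio 0.884 to 1.07). Hadha and Hadhb encode the α and β subunits of the trifunctional protein, which handles long chains and needs both. They lie head to head on chromosome 5, Hadha from 30118304 to 30154980 and Hadhb from 30155253 to 30184593, with 272 bases between their spans. Hadha was at 155 and 252 CPM, 1.62-fold higher (interval 1.55 to 1.69). Hadhb was at 18.0 and 12.1 CPM, 1.49-fold lower (interval 1.27 to 1.75). The pair thus went opposite ways, with Hadha at 3.83 times the level of Hadhb per kb in fresh and 9.25 times in expanded cells. In Hadhb, 19.7% of 50-base stretches also occur in other genes, among them the pseudogene Gm13910, so its level is uncertain. The stretch of the gap between the pair that holds no GENCODE exon is shown because both genes start from its sides. It is the RefSeq promoter sequence on the strand of Hadha (build GRCm38.p6, chr5:30155163-30155230, minus strand, 5′ to 3′) and holds no match to the motifs named above, so no base is in capitals.
Hadha and Hadhb, shared upstream stretch: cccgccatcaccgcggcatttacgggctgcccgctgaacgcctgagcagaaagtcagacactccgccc

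The auxiliary enzymes that prepare unsaturated chains for the cycle were all higher in expanded cells, 1 of 3 by more than 2-fold. Decr1, the mitochondrial dienoyl-CoA reductase, was at 18.7 and 40.0 CPM (2.13-fold, interval 1.89 to 2.41), and its log2 fold of 1.09 was 0.93 when scaled by total count. The enoyl-CoA isomerase genes Eci1 (20.3 and 30.2 CPM) and Eci2 (29.7 and 49.7 CPM) were 1.48-fold and 1.67-fold higher. In Eci2, 11.1% of 50-base stretches also occur in other genes.

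The electron transfer flavoprotein takes electrons from the acyl-CoA dehydrogenases, and its ubiquinone oxidoreductase passes them to the respiratory chain. Etfb, its β subunit, was the member of the oxidation arm furthest up, at 34.9 and 158 CPM (4.51-fold higher, interval 4.17 to 4.89). In Etfb, 44.8% of the 50-base stretches also occur in 2 other genes of the GENCODE annotation, Gm45233 and Mir7051, with Gm45233 sharing the most. The level of Etfb is therefore uncertain. Etfa, the α subunit, was at 50.9 and 117 CPM (2.30-fold higher, interval 2.14 to 2.47). Etfdh, the oxidoreductase, was at 48.04 and 56.5 CPM (1.18-fold, interval 1.08 to 1.28). The β to α ratio per kb was 1.11 in fresh cells and 2.18 in expanded cells, and is uncertain with the level of Etfb.

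The RefSeq stretches before the starts of the α and β subunit genes are shown the same way, since the pair was higher together by different sizes. They lie at chr9:55512244-55512393 (Etfa, minus strand) and chr7:43443922-43444071 (Etfb, plus), with the nearest match 11 and 29 bases before the start.
Etfa: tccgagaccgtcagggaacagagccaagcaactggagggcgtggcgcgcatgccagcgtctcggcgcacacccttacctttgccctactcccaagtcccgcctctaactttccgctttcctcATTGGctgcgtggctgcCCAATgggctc
Etfb: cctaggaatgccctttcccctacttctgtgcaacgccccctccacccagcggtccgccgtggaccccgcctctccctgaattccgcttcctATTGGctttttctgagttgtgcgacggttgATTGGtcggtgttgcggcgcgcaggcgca

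**Figure D3:**
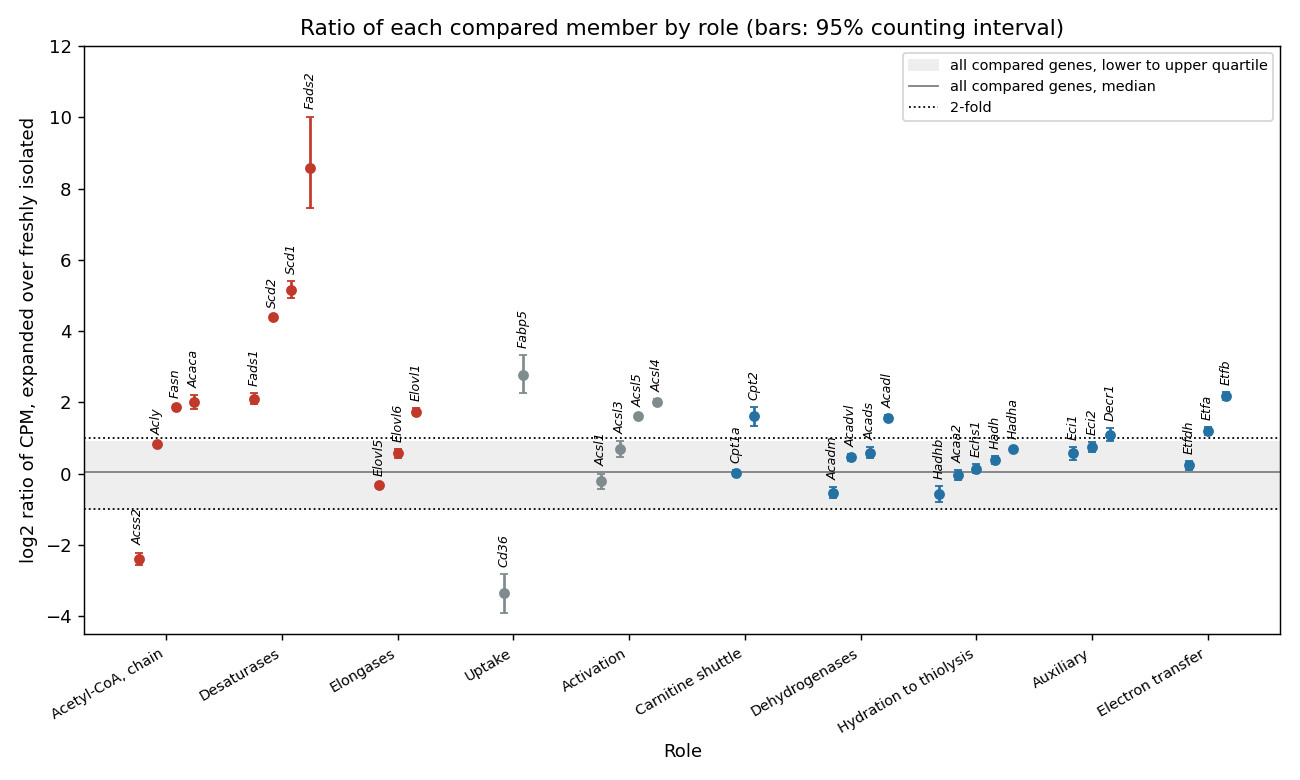
Log2 ratio of CPM (expanded over freshly isolated) of the 34 compared members by role, with 95% counting intervals as bars, dotted lines at 2-fold and a grey band from the lower to the upper quartile of all 11715 compared genes. The 4 desaturases lie above the upper dotted line, Acss2 and Cd36 lie below the lower one, and the 5 genes from hydration to thiolysis lie inside the band.

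Set side by side, the synthesis arm held the larger share of the counts of both arms, and more so in expanded than in fresh cells. The 11 compared synthesis genes summed to 1030 CPM in fresh and 4120 CPM in expanded cells, higher by 4.0-fold (interval 3.94 to 4.06). The 17 oxidation genes summed to 870 and 1471 CPM, 1.69-fold higher (interval 1.66 to 1.72). Of the counts of both arms together, Acacb included, the synthesis arm held 54.2% in fresh cells (exact interval 53.7 to 54.7) and 73.7% in expanded cells (73.4 to 73.9). Per kb of gene length these shares were 40.6% and 54.04%, so that oxidation led in fresh cells on that scale. Much of this rested on Scd2. Without it the synthesis arm summed to 929 and 2014 CPM (2.17-fold) and held 51.7% and 57.8% of the counts of both arms. Without both Scd1 and Scd2 the ratio was 1.90 and the shares 51.5% and 54.4%. Per kb, the compared synthesis genes without Scd2 summed to 230 and 459.5 CPM per kb, beside 364 and 720 for the oxidation arm. On that scale the synthesis arm without Scd2 and the full oxidation arm were higher by like factors, and oxidation led in both libraries. Without both Scd1 and Scd2 the synthesis sums per kb were 229 and 405, a smaller factor than that of the full oxidation arm. No oxidation gene was left out in these comparisons, and Etfb alone held 38.9 and 175 CPM per kb of the oxidation sums. The 4 core genes Acly, Acss2, Acaca and Fasn held 37.6% and 42.7% of the counts they shared with the oxidation arm. Leaving out Acadl, the oxidation arm was 1.53-fold higher, and its sums per kb were 313 and 568. By medians, which 1 abundant gene does not set, the arms were 1.30 apart on the log2 scale.

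The other genes of the pathway, from lists of non-members, gave the following counts, to be read beside the 22.4% of all compared genes that were at least 2-fold higher and the 25.0% that were at least 2-fold lower. A list whose shares lie near these does not stand apart from the table. Of 16 compared genes of synthesis, elongation and desaturation, 8 were at least 2-fold higher and 1 was lower (median log2 fold 0.997). That list also holds genes of fatty acid synthesis inside mitochondria. Me1, the malic enzyme that supplies NADPH, had 1 count and 119 counts (ratio 122, interval 21.5 to 4853). Fads3, of the same family as Fads1, was at 0.557 and 10.3 CPM. The lower gene was the elongase Elovl7, at 13.1 and 2.38 CPM. Of 19 compared genes of mitochondrial oxidation, a list not limited to fatty acids, 2 were higher and 3 lower (median 0.46). Furthest up were Hsd17b10, a mitochondrial hydroxyacyl-CoA dehydrogenase, at 41.5 and 149 CPM and Mut, the methylmalonyl-CoA mutase, at 20.9 and 43.8 CPM. The acyl-CoA dehydrogenase family gene Acad10 (12.3 and 1.66 CPM) and the muscle-type carnitine palmitoyltransferase gene Cpt1b (5.62 and 1.24 CPM) were furthest down. Peroxisomal oxidation had none of 14 higher and 3 lower (median 0.04). The peroxisomal transporter Abcd2 had 4.41 CPM and 0 counts, at least 30.9-fold lower (against 3 counts in expanded cells).

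Of 11 compared genes of uptake and activation outside the members, 3 were higher and 6 lower (median -1.27). Furthest up was Vldlr, which encodes the very low density lipoprotein receptor, with 0 counts and 4.61 CPM (at least 33.1-fold higher). Lipoprotein lipase, Lpl (7.43 CPM and 0 counts, at least 52.1-fold lower), and the adipocyte and macrophage fatty acid binding protein gene Fabp4 (6.18 CPM and 0 counts, at least 43.3-fold lower) were furthest down. Macrophage markers (1245 and 90.7 CPM in sum) were lower in the same library, and their part was not tested. Acss1, the mitochondrial counterpart of Acss2, was named after its values were seen. It stood at 102 and 2.05 CPM, 49.8-fold lower, so that both acetate-using synthetases were lower in expanded cells.

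Of 20 genes of droplets, lipolysis and triglyceride synthesis, 6 were higher and 3 lower (median 0.31). Gpat3, an acyltransferase of glycerolipid synthesis, was at 0.604 and 8.51 CPM, and the droplet coat gene Plin2 at 24.5 and 126 CPM. Dgat1, which makes triglyceride, was at 105 and 23.5 CPM, and the lysosomal lipase gene Lipa at 120 and 52.3 CPM. Of 30 compared regulators, 2 were higher and 10 lower (median -0.40). Pparg, a nuclear receptor of lipid uptake and storage, was at 14.3 and 104 CPM. Srebf2 (214 and 479 CPM) and Srebf1 (72.2 and 131 CPM) encode the sterol regulatory element binding proteins that drive lipid synthesis, and Insig1, which retains them at the endoplasmic reticulum, was at 64.6 and 93.7 CPM. Furthest down were the oxysterol receptor gene Nr1h3 (9.99 and 0.333 CPM) and the oxidation coactivator gene Ppargc1a (55 counts and 1 count, 53.7-fold lower with an interval from 9.25 to 2160). Nr1h3 is also known from macrophages, whose markers were lower in the same library, and their part was not tested. Ppara, the nuclear receptor best known for oxidation genes in liver, had 0 counts in both libraries, which allows up to 0.139 and 0.143 CPM (3 counts).

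**Figure D4:**
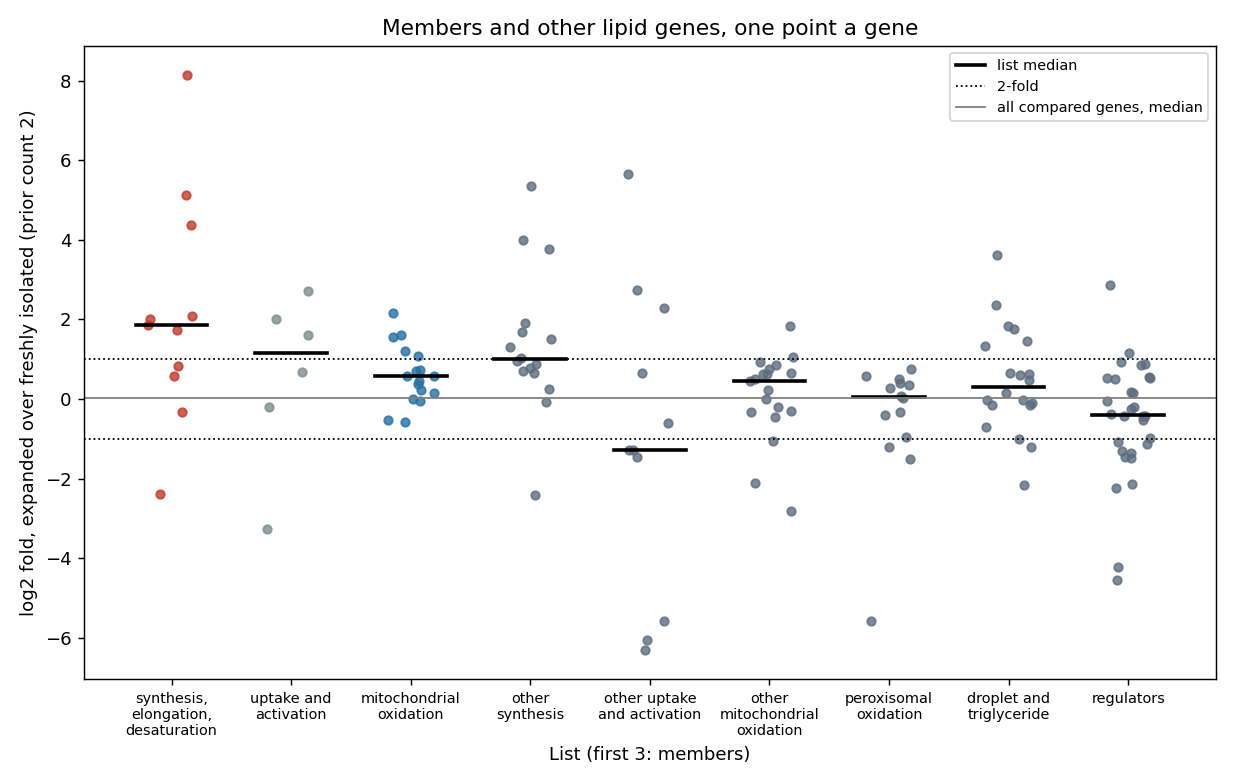
Log2 fold (expanded over freshly isolated, prior count of 2) of the members in their 3 groups and of 6 lists of other lipid genes, 1 point a gene, with list medians as black bars and dotted lines at 2-fold. The medians of the synthesis arm (1.87) and of other synthesis genes (0.997) lie above those of the oxidation arm (0.57), other mitochondrial oxidation genes (0.46) and peroxisomal genes (0.04).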

How the data were processed

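The deposited table held whole-number read counts per gene and a gene length in kb (which exons it covers is not given in the sources used here). Per the submitters' processing notes, STAR 2.6.0, HTSeq 0.6.0, bcl2fastq 2.18.0.12 and edgeR 3.28.1 were named, with builds mm10 and GRCm38. As settings, use of strand and annotation release are not named there, the reads of overlapping genes cannot be told apart. Libraries were scaled over the whole table with TMM factors (edgeR 4.0.16 in R 4.3.3), and genes of a mean of at least 1 CPM were compared. Log2 folds used a prior count of 2 and set the 2-fold and 4-fold counts, and printed folds are plain CPM ratios with exact conditional binomial intervals. Shared sequence was counted as 50-base stretches over GENCODE M21 transcripts. The 35 members and the gene lists were chosen with earlier results of these data known. All members, the 2 genes furthest up and down of each other lipid list (if 2-fold apart), the 2 most abundant markers of each cell list and 6 regulators or receptors were to be named. Of these, 2 are not reported here. On simulated Poisson counts of 11715 genes for this comparison, the 4-fold limit found 99.5% of 200 genes with an 8-fold change and 0 unchanged ones. The 2-fold limit was not tried on these counts. Such counts hold no variation between animals or preparations, so they cannot measure false calls in these data. Alternatives were other scalings (DESeq2 1.42.0 size factors among them), prior counts, filters, the fold limit and the makeup of the arms.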

Additional observations from a re-analysis of the deposited data

How the results depend on the processing

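No paired analysis was possible because each group had 1 library, and for the same reason no replicate could be left out. Of 304 values of single members under alternatives, 268 stayed inside the counting interval and 36 moved beyond it, with no reversal among members at least 2-fold apart. The filters cannot change the log2 fold of a member, so their values stayed by construction. All values that moved did so under other scalings, most of them under total count. Scaling by total count moved the median log2 fold of all genes from 0.04 to -0.12. With total count, DESeq2 size factors, upper quartiles and total count less the 50 top genes of either library, the summed synthesis arm was 3.58-fold, 3.94-fold, 3.81-fold and 3.79-fold higher. Total count, upper quartiles and total count less those top genes gave synthesis medians of 1.71, 1.80 and 1.79 and oxidation sums 1.51-fold, 1.61-fold and 1.60-fold higher. Per kb the sums were 3.40-fold and 1.98-fold higher. With no filter, Acacb entered, making 2 synthesis genes lower and the median 1.80. The 4-gene core had 2 higher, a median of 1.35 and a sum 2.09-fold higher. Chosen after seeing the data, leaving out Scd2 gave a median of 1.80 and a 2.17-fold sum, and leaving out Scd1 and Scd2 gave 1.73 and 1.90. A 4-fold limit left 4 synthesis and 1 oxidation gene higher, and Acaca passes that limit with a prior count of 0.5 (log2 fold 2.005) but not with 2 (1.9996). Depth limits chiefly Acacb and Fads2, at 17 and 6 counts in the freshly isolated library.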
